A study of Mus musculus with 24 samples.

Results

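The transcripts described here encode 10 acute phase proteins: the serum amyloid A proteins Saa1, Saa2, Saa3 and Saa4, the orosomucoids Orm1 and Orm2, haptoglobin (Hp), hemopexin (Hpx), lipocalin 2 (Lcn2) and serum amyloid P (Apcs). They were picked out on the array by gene name. Of the 10 genes, 9 were found by their symbol on the array and 1, Hpx, by its RefSeq accession, since the array names it Hpxn. The genes had 12 probes among 41174 probes of 27962 gene names. Saa1 and Saa4 had 2 probes each, and the brighter one was used unless stated otherwise. RNA came from the whole colon and the liver of 12 female C57BL/6 mice aged 12 weeks, so that every mouse gave 1 colon and 1 liver array. All dams ate the HF-low diet, which is rich in fat and poor in both selenium and folate, from 7 days before mating until the end of lactation, so that both groups share this early exposure. At weaning, at about 28 days, 6 mice stayed on HF-low (HF-low-low) and 6 were moved to HF-suf, as rich in fat but adequate in both nutrients (HF-low-suf). Because selenium and folate were changed together, their effects cannot be told apart, and the labels do not say which mice shared a dam. Each of the 24 two-colour arrays compared Cy3-labelled RNA of 1 tissue of 1 mouse with a Cy5-labelled pool of colon and liver RNA from all the mice, and values below are log2 ratios of sample to pool, on which a difference of 1 is a factor of 2.

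Acute phase proteins are plasma proteins whose concentration changes during inflammation, infection or injury. Hepatocytes make most of them, under the control of interleukin 6, which signals through STAT3, and of interleukin 1 and tumour necrosis factor, which signal through NF-kB and C/EBP factors. Saa1 and Saa2 are carried on high-density lipoprotein and are the most inducible of the group, whereas Saa4 is made constitutively. Saa3 is the serum amyloid A of macrophages, fat and gut epithelium. The orosomucoids bind drugs and lipids, haptoglobin binds free haemoglobin, hemopexin binds free haem, lipocalin 2 binds bacterial siderophores, and Apcs is a pentraxin related to C-reactive protein and the major acute phase protein of this family in mice. The colon epithelium also makes serum amyloid A.

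The serum amyloid A genes and the 2 orosomucoid genes are close copies of each other, so the sequences that the array read decide how far their values are separate measurements. Each probe is 60 bases long, and the file gives its position in mouse build mm7. The probes below are those of Saa1, Saa3 and the orosomucoids, followed by that of Hpx, which had the largest fitted difference between tissues, and are shown in lower case throughout because no part is singled out.
Saa1, chr7:42916901-42916960, minus strand: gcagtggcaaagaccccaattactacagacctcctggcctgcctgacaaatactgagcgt
Saa1, second probe, chr7:42916998-42917470, minus strand: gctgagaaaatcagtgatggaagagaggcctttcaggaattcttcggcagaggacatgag
Saa3, chr7:42888862-42888921, minus strand: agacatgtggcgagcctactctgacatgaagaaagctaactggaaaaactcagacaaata
Orm1, chr4:62779145-62779752, plus strand: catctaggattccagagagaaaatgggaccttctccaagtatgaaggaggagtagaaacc
Orm2, chr4:62797641-62797700, plus strand: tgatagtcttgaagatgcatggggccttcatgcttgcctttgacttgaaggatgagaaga
Hpx, chr7:101648211-101648270, minus strand: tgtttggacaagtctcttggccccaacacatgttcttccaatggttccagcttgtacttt
The second Saa1 probe spans 473 genomic bases, the Orm1 probe 608 and the Lcn2 probe 245, so these 3 cross at least 1 intron and read spliced RNA. The Saa2 probe, at chr7:42930366-42930425 on the plus strand, is given by position only. It matched the Saa1 probe at 18 of 58 aligned bases and the Saa3 probe at 19 of 51. The Saa1 and Saa3 probes matched each other at 21 of 58, and the Orm1 and Orm2 probes at 24 of 56. These comparisons are between probes only, and the 2 probes of Saa1 itself matched at 19 of 60. Such counts therefore do not show whether the values are separate measurements. How well each probe hybridizes to the transcript of a related gene was not tested. The array's own annotation of the Saa3 probe also lists an accession of Saa1, so its values are uncertain as a measure of Saa3 alone. The names Saa1 and Saa2 of this locus have been exchanged in the past, and the names used here are those of the array.

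RefSeq promoter sequences (GRCm38.p6) were held for 8 of the 10 genes, all but Orm1 and Hp. The 250 bases before the start of Saa1, Saa2 and Saa3 are shown because these 3 transcripts moved together over the mice. Capitals mark matches to TTGCNNAA, a core of C/EBP sites, on either strand, and in Saa3 also a match to GGNNTTTCC, a core of NF-kB sites.
Saa1, chr7:46742981-46743230, minus strand: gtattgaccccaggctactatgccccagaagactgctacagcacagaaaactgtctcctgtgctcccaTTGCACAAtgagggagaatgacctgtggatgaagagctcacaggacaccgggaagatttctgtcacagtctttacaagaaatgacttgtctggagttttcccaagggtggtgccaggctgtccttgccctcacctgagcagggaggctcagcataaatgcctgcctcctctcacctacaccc
Saa2, chr7:46751583-46751832, plus strand: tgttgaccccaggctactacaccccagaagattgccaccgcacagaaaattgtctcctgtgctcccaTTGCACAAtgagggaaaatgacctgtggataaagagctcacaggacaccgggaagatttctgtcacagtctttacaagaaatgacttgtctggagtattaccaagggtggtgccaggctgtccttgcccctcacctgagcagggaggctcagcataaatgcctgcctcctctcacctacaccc
Saa3, chr7:46715677-46715926, minus strand: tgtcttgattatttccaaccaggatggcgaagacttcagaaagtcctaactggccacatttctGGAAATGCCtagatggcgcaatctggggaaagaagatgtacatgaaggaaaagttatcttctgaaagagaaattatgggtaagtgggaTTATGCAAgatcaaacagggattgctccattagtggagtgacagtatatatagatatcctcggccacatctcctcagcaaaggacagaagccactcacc
The Saa1 and Saa2 promoters were identical at 94.8% of 251 aligned columns, and those of Saa1 and Saa3 at 50.2% of 263. In both Saa1 and Saa2 the capitals spell TTGCACAA, starting 182 and 183 bases before the start. The C/EBP core was present in 7 of the 8 promoters, Apcs being the exception, and in 9.56% of 32851 promoters of this length. CTGGGAA, a core of STAT3-type sites, was present in Apcs only, at 2 places, against 9.10% of all promoters, and TTCNNNGAA, the palindromic STAT core, again in Apcs only, against 7.02%. GGNNTTTCC was found in Saa3 only, against 4.93% of all promoters. A match of letters describes these windows and does not show that a factor binds there.

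The arrays were well separated by tissue. All 9 measured hepatocyte markers were higher in liver and all 10 colon epithelium markers were higher in colon (Benjamini-Hochberg adjusted P below 0.05 in limma). Between 26.1% and 71.9% of spots were well above background in the sample channel, and the correlation between replicates of a group ranged from 0.655 to 0.936. Some livers differed in markers of cells other than hepatocytes. Averaged over 10 adipocyte markers, HF-low-suf liver 1 stood at 2.03 against −0.91 to 0.11 in the other HF-low-suf livers and −1.01 to −0.21 in the HF-low-low livers, and averaged over 12 skeletal muscle markers, HF-low-suf liver 2 stood at −2.52. In whole tissue, fewer cells of a type and less RNA per cell cannot be told apart.

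All 10 acute phase transcripts differed between liver and colon, 7 being higher in liver and 3, Saa1, Saa2 and Saa3, higher in colon. Over the whole array, 19.4% of probes were higher in liver and 18.9% were higher in colon by the same test (limma over both tissues, treating mouse as a random effect, adjusted P below 0.05), so that a call is common. The median difference of the 10 was 4.26 on the log2 scale, against a median of 0.02 for all probes, and the median absolute difference was 4.26 against 0.21. Several of the colon levels behind these medians lay at or near background, as given below by gene, so their size is uncertain.

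The scavengers of haem and haemoglobin were far higher in liver than in colon. Hpx lay between 1.42 and 3.45 in the 12 livers (median 2.33) and between −5.93 and −5.02 in the 12 colons (median −5.43). The groups did not overlap, and the difference was 7.77 ± 0.15 (SE, n = 12 mice), or 217.9-fold (limma adjusted P = 1.89e-24). Hp ranged from 1.01 to 2.43 in liver, with a median of 1.84, and from −4.97 to −4.23 in colon, with a median of −4.47. That difference was 6.25 ± 0.13 (SE), or 75.9-fold (limma adjusted P = 1.11e-23). Both probes were above background in every colon. Raw colon signals in the sample channel ran from 1462 to 3718 for Hp but only from 295 to 595 for Hpx. The latter overlap those of Orm1 (176 to 470), so the size of the Hpx difference rests on colon values near the floor.

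The orosomucoids, which carry lipophilic molecules in plasma, were also higher in liver. Orm1 ranged from 2.16 to 2.66 over the livers (median 2.48) and from −3.68 to −2.14 over the colons (median −2.65). Orm2 ranged from 2.38 to 3.14 in liver (median 2.70) and from −3.41 to −2.15 in colon (median −2.52). Their differences were 5.14 ± 0.13 and 5.27 ± 0.12 (SE). Each was above background in only 6 of 12 colons, so these sizes rest on colon values near the floor of the measurement.

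Saa4, the constitutive serum amyloid A, was higher in liver, unlike its 3 relatives. It ranged from 1.20 to 2.04 in liver (median 1.60) and from −3.98 to −2.42 in colon (median −3.36), where 6 of 12 arrays were above background. The difference was 4.98 ± 0.13 (SE), and 4.36 ± 0.19 by its second probe, which was above background in 1 of 12 colons. Both are set against a colon level near background. Apcs ranged from 0.10 to 0.96 in liver (median 0.47) and from −3.55 to −2.64 in colon (median −2.95), with 2 of 12 colons above background. The difference was 3.55 ± 0.11 (SE), measured against a colon level at or near background, and its size depended on the processing, with 4.98 from Feature Extraction processed signals. Processed signals also gave 5.86 for Saa4, 6.11 for Orm1 and 6.35 for Orm2.

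Lcn2, a secreted protein that withholds iron from bacteria, had the weakest signal of the group. It was not well above background in any of the 12 colons and was so in 9 of 12 livers. Liver values ran from 0.16 to 2.88 (median 1.17) and colon values from −1.66 to 0.09 (median −0.47), without overlap. Because the colon level is only a limit, the liver was at least 2.14-fold higher in this processing (limma adjusted P = 1.79e-06). With median centring the fitted log2 difference fell from 1.85 to 0.90, a smaller rise than this bound. Here the bound compares the mean liver value in the sample channel with, on each colon array, the higher of the dimmest signal called above background and the probe's own.

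The inducible serum amyloid A genes and Saa3 went the other way. Saa1 ranged from −1.97 to 0.68 in liver, with a median of −1.37, and from −0.01 to 1.17 in colon, with a median of 0.49. Saa2 ranged from −1.94 to 1.21 in liver (median −0.96) and from 0.07 to 1.15 in colon (median 0.57). Saa3 ranged from −1.85 to 1.23 in liver (median −0.79) and from 0.42 to 1.87 in colon (median 0.92). For all 3 the tissues overlapped, through the livers with the highest values. Colon was higher by 2.94-fold for Saa1, 2.25-fold for Saa2 and 2.94-fold for Saa3, and the liver minus colon differences were −1.56 ± 0.22, −1.17 ± 0.22 and −1.56 ± 0.23 (SE). The second Saa1 probe gave −1.82 ± 0.23, and the Cy3 channel alone gave −1.90 ± 0.25 for Saa2. In limma the adjusted P was 8.99e-07 for Saa1, 9.53e-05 for Saa2 and 2.37e-06 for Saa3. Adipocyte markers were also higher in colon, 8 of 10 by the same test against 1 higher in liver. Their mean ran from 0.73 to 2.57 over the colons and from −1.01 to 2.03 over the livers. Of the 12 macrophage and neutrophil genes, 7 were higher in liver and 1 in colon, but Mpo and S100a8 among the 7, and Itgam, the 1 higher in colon, were above background on at most 4 arrays of either tissue. The part of these cells in the difference was not tested.

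Within mice, Saa1 and Saa3 were lower in the liver than in the colon of all 12 mice, and Saa2 in 11 of 12. The other 7 transcripts were higher in the liver of all 12. The two-sided exact sign-flip test over the 12 mice gave P = 0.000488, the smallest that 4096 assignments allow, for every gene except Saa2, which had P = 0.000977. In the plot of all arrays, the change of side between Saa1 to Saa3 and the remaining genes is visible in every group.

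**Figure D1:**
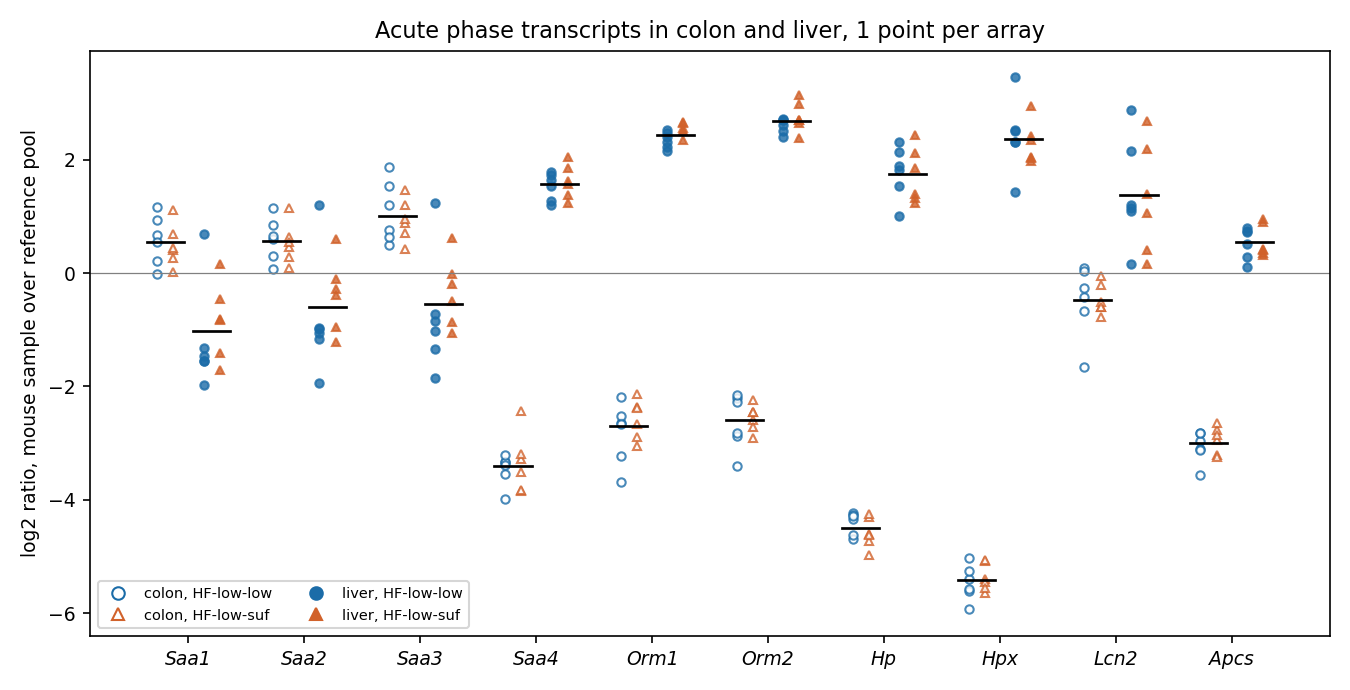
Log2 ratio of mouse sample to reference pool (y axis) for each of the 10 acute phase transcripts (x axis), with open symbols for colon, filled symbols for liver, blue circles for HF-low-low, orange triangles for HF-low-suf and a black bar at the mean of the 12 arrays of a tissue. Saa1, Saa2 and Saa3 lie higher in colon, the other 7 lie higher in liver, and Hpx has the widest separation, from at most −5.02 in colon to at least 1.42 in liver.

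Other acute phase genes showed where these values stand. Of 20 further positive acute phase genes, all measured, 16 were higher in liver and 2 higher in colon, and 2 did not pass the test, with a median difference of 4.30. The fibrinogen chains Fgg and Fgb, which form the clot, were higher in liver by 8.70 ± 0.10 and 6.38 ± 0.10 (SE), Itih3, an inter-alpha-trypsin inhibitor heavy chain, by 7.37 ± 0.10, and Fgl1, a hepatocyte-secreted fibrinogen-like protein, by 6.78 ± 0.12, although its probe was above background in 3 of 12 colons. The 2 genes higher in colon were Cd14, the co-receptor for endotoxin, at −0.86 ± 0.16, and the metal-binding protein Mt2, at −1.27 ± 0.33. These 2 were named after their values were seen. All 8 negative acute phase genes, whose plasma proteins fall in inflammation, were higher in liver, with a median of 5.71. Among them Apoa2 differed by 6.68 ± 0.09, the retinol carrier Rbp4 by 6.60 ± 0.11, Apoa1 by 6.06 ± 0.17 and Ahsg, also called fetuin A, by 5.97 ± 0.12. The lower liver level of Saa1, Saa2 and Saa3 was therefore shared by few genes of these lists.

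For the upstream genes the median liver minus colon difference was 0.27 in the cytokine and receptor list and −0.16 in the signalling list. Of 13 measured inducing cytokines and their receptors, 6 were higher in liver and none in colon, but only 6 were above background on at least 6 arrays of a tissue, and Il6, Il1a, Il1b and Tnf were not among them. Il6 and Il1a are counted among the 6 higher in liver, although neither was above background on more than 1 array of a tissue. The receptor chain Lifr had the largest difference, 3.88 ± 0.13 (SE). It was followed by Il6ra, the receptor for interleukin 6, at 0.85 ± 0.19, by Tnfrsf1a at 0.61 ± 0.08 and by Il1r1 at 0.31 ± 0.10. Of 15 signalling and transcription factors, 6 were higher in liver and 6 in colon. Creb3l3, a liver-enriched factor that controls Apcs and hepcidin, was higher in liver by 3.91 ± 0.14, Cebpb by 1.87 ± 0.18 and Cebpa by 1.72 ± 0.23, whereas Cebpd, another C/EBP factor, was lower there at −1.27 ± 0.17. Of 8 receptors and handling genes, 4 were higher in liver and 2 in colon, although 1 of the 4, the formyl peptide receptor gene Fpr-rs2, was above background in 1 liver and no colon. Scarb1, the lipoprotein receptor that also takes up serum amyloid A, was higher in liver by 2.85 ± 0.14, as was Hmox1, the haem oxygenase, by 1.39 ± 0.17. Tlr2 and Tlr4, receptors for microbial products, were lower in liver at −2.42 ± 0.15 and −1.08 ± 0.11, with Tlr4 above background in 1 of 12 livers.

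The post-weaning diet did not pass the test for any acute phase transcript, in either tissue. Beside this stands 0.109% of all probes called in liver and 0.168% in colon (limma on 12 arrays, with the study's cut-offs of 0.01 for the unadjusted P and 1.5 for the fold change), and no probe of the array passed Benjamini-Hochberg adjustment in either tissue. At an unadjusted P below 0.05, 899 probes in liver and 1231 in colon passed, and none was an acute phase transcript by its main probe. The intervals, however, were wide for the transcripts that varied most between livers.

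The signs of all diet differences given here follow the labels, with Cy3 as the mouse sample, and run opposite to the direction printed in the study's own lists of called genes for nearly every probe of those lists. With Cy3 as the sample, hepatocyte markers were higher in liver, as given above. The cause of the opposite signs was not tested, and with the study's direction the sign of each diet difference would turn. The livers of HF-low-suf mice were higher on average for Saa1, Saa2 and Saa3, within the spread of the mice. Saa1 in liver ran from −1.97 to 0.68 (median −1.50) in HF-low-low and from −1.71 to 0.15 (median −0.82) in HF-low-suf. Saa2 in liver ran from −1.94 to 1.21 (median −1.02) in HF-low-low and from −1.22 to 0.60 (median −0.33) in HF-low-suf. Saa3 in liver ran from −1.85 to 1.23 (median −0.93) in HF-low-low and from −1.06 to 0.61 (median −0.34) in HF-low-suf. The groups overlapped over nearly their whole range, because the highest liver was an HF-low-low one. The HF-low-suf minus HF-low-low differences were 0.36 ± 0.41, 0.43 ± 0.44 and 0.43 ± 0.43 (SE), with limma unadjusted P = 0.399, 0.345 and 0.337. Without HF-low-low liver 2 they were 0.73 ± 0.28, 0.83 ± 0.30 and 0.83 ± 0.29 (limma unadjusted P = 0.0223, 0.0149 and 0.0143), and none passed adjustment over the array. Leaving out any other liver gave 0.16 to 0.53 for Saa1, 0.20 to 0.59 for Saa2 and 0.21 to 0.57 for Saa3. The 95% interval of the Saa2 difference ran from 0.70-fold to 2.56-fold, so neither a fall to that level nor a rise to that level can be told from no change.

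Orm1 had the smallest P of the group in liver. It ran from 2.16 to 2.53 (median 2.36) in HF-low-low and from 2.34 to 2.66 (median 2.53) in HF-low-suf. The groups overlapped, with the upper HF-low-low livers inside the range of HF-low-suf. The difference was 0.19 ± 0.11 (SE), with limma P = 0.121 and an adjusted P of 1, while the two-sided exact permutation test over all assignments of the 12 livers gave P = 0.0325 for this gene and more than 0.05 for the other 9. Orm2 differed by 0.15 ± 0.14, Saa4 by 0.09 ± 0.16, Apcs by 0.04 ± 0.17, Hp by −0.06 ± 0.25, Hpx by −0.13 ± 0.27 and Lcn2 by −0.12 ± 0.48. The median of the 10 differences was 0.12, against 0.00 for all probes, and the median absolute difference was 0.14, against 0.11.

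In the colon, 8 of the 10 genes were above background on at least 6 arrays, and their differences between diets lay between −0.18 and 0.23. Apcs was above background in 2 colons, so its difference of 0.12 lies near background, and Lcn2 was so in none, which leaves no measured difference. Hp ran from −4.69 to −4.23 in HF-low-low and from −4.97 to −4.25 in HF-low-suf, a difference of −0.18 ± 0.15 (SE) that had the smallest P of the main probes (limma unadjusted P = 0.262, exact permutation P = 0.251). Saa1, Saa2 and Saa3 differed by −0.10 ± 0.21, −0.07 ± 0.20 and −0.15 ± 0.24. Their groups overlapped, and the highest Saa3 value was an HF-low-low colon, at 1.87 against at most 1.47 in HF-low-suf. The second Saa4 probe gave 0.60 ± 0.33 (limma unadjusted P = 0.0864, exact permutation P = 0.167), but it was above background in 1 of 12 colons. No diet by tissue difference passed adjustment (smallest adjusted P over the array 0.307), and at an unadjusted P below 0.01, which 1.64% of all probes passed, none of the 10 did, although the colon values of Lcn2 and Apcs in this test are at or near background. The closest was Saa3, whose diet difference was 0.58 ± 0.46 larger in liver than in colon (limma unadjusted P = 0.220, adjusted P = 0.896). None of the list genes named above was called for diet in either tissue in these fits. Fpr-rs2, above background in 1 liver, differed by −0.61 ± 0.26 (SE) in liver (limma unadjusted P = 0.0352). The study lists the same Fpr-rs2 probe among its called liver genes, as raised in supplemented mice, opposite in sign to the value here.

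**Figure D2:**
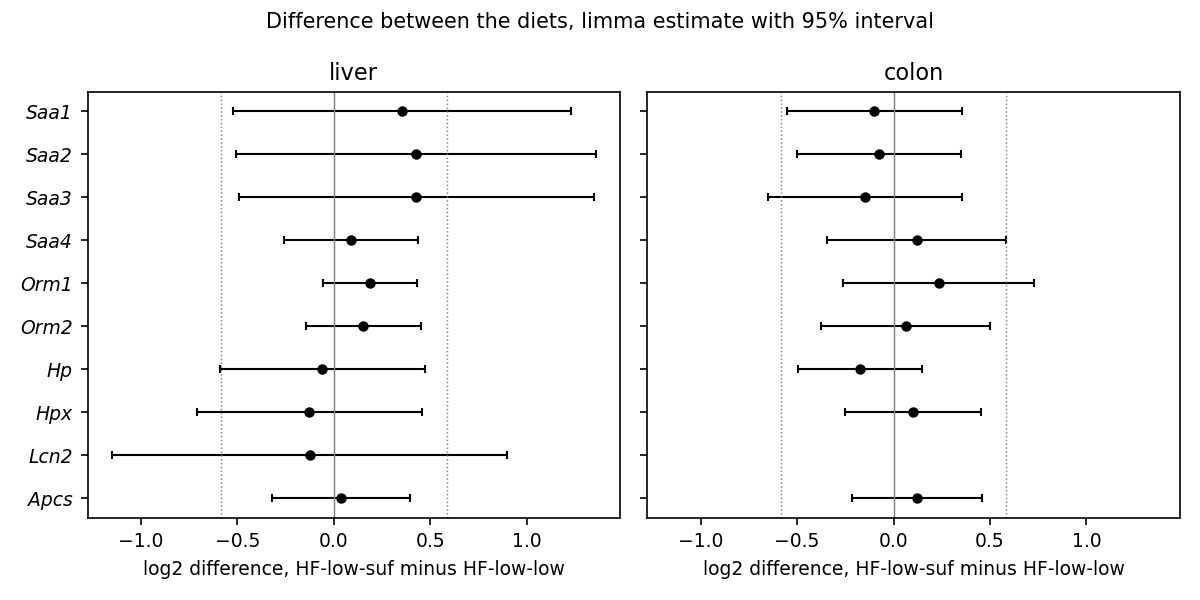
Difference between the diets (x axis, log2, HF-low-suf minus HF-low-low) for each transcript in liver (left) and colon (right), as the limma estimate with its 95% interval over 12 arrays, with dotted lines at a fold change of 1.5. Every interval includes 0, and those of Saa1, Saa2, Saa3 and Lcn2 in liver are the widest, and Lcn2 is left out of the colon because it was above background on none of its arrays.

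The variation between livers set the acute phase transcripts apart from one another. Over the 12 livers the SD of the log2 ratio was 0.80 for Saa1, 0.86 for Saa2, 0.85 for Saa3 and 0.92 for Lcn2. Lcn2 was above background in 9 of 12 livers, at raw sample signals of 259 to 806, so its SD is less certain. Its lowest value, 0.16, came from HF-low-suf liver 4, 1 of the 2 arrays with the brightest reference. The median SD over 15209 probes detected in liver was 0.29, and 98.4% of them had a smaller SD than Saa2. Hpx (SD 0.51) and Hp (SD 0.45) came next. Orm1 (0.16), Orm2 (0.22), Saa4 (0.26) and Apcs (0.27) varied less than the median probe. The highest and lowest liver differed 8.84-fold in Saa2, 8.48-fold in Saa3, 6.30-fold in Saa1 and 1.42-fold in Orm1.

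A pair of mice stood at the top of that range. The HF-low-low liver 2 had the highest Saa1 (0.68), Saa2 (1.21) and Saa3 (1.23) of all livers, and also the highest Hpx (3.45) and Lcn2 (2.88). The same liver had the lowest Orm1 (2.16) and the lowest Apcs (0.10). The HF-low-suf liver 1 was next in Saa1 (0.15), Saa2 (0.60), Saa3 (0.61), Hpx (2.94) and Lcn2 (2.68), and highest in Hp (2.43) and Orm2 (3.14). The mean of the adipocyte markers was also highest in this liver, at 2.03. At the other end, HF-low-low liver 5 was lowest in Saa1 (−1.97), Saa2 (−1.94) and Saa3 (−1.85). Thus Saa1, Saa2 and Saa3 ranked the livers nearly alike, and Orm1 and Apcs did not follow.

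**Figure D3:**
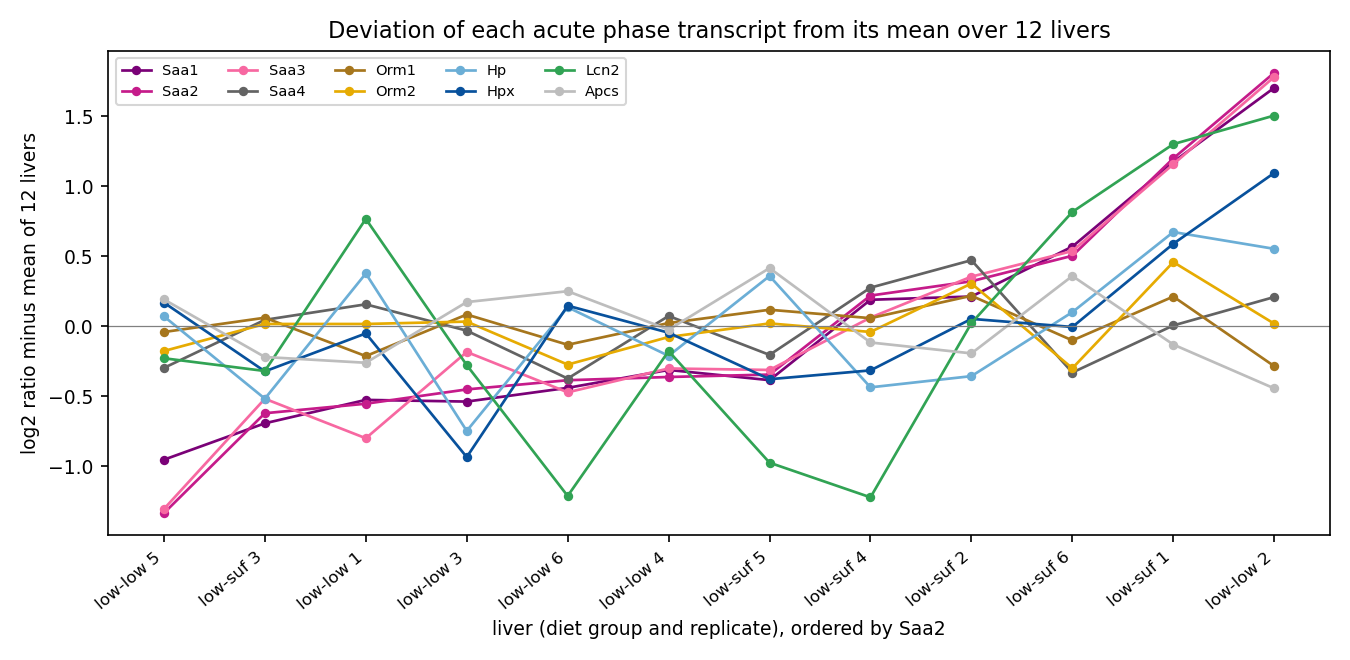
Deviation of each transcript's log2 ratio from its mean over the 12 livers (y axis), with the livers ordered from lowest to highest Saa2 (x axis, diet group and replicate) and 1 line per gene. Saa1, Saa2 and Saa3 run together from HF-low-low 5 to HF-low-low 2, Lcn2 and Hpx are high in the last 2 livers but uneven elsewhere, and Orm1, Orm2, Saa4 and Apcs stay near 0.

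The transcripts of Saa1, Saa2 and Saa3 varied together from mouse to mouse. Over the 12 livers Pearson's r was 0.990 for Saa1 and Saa2 (Spearman's rho 0.986), 0.989 for Saa2 and Saa3 (rho 0.944) and 0.975 for Saa1 and Saa3 (rho 0.916). The permutation P was 1e-05 for each r, the smallest that 100000 resamples give, and 0.00015 after adjustment over the 45 pairs of the 10 genes. Without the 2 livers farthest from the median, r was still 0.969, 0.965 and 0.922. On the 2 scan days taken separately, the 3 values of r lay between 0.975 and 0.999, and in the sample channel alone, without the reference, they were 0.977, 0.976 and 0.969. The 2 probes of Saa1 correlated at r = 0.987 over the livers, so that Saa2 followed Saa1 as closely as its own second probe did. How far cross-hybridization between these related probes contributes was not tested. Of all pairs of detected probes, 0.204% had an r above 0.9.

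Beyond this trio the correlations were weaker, and several of them depended on few livers. Hp and Hpx, the 2 haem-related scavengers, had r = 0.743 (adjusted P = 0.0287; rho = 0.608, adjusted P = 0.298). The relation held on the first scan day, with r = 0.851, and not on the second, with r = 0.137. It was 0.580 without the 2 livers farthest in Hp. Saa1 and Hpx had r = 0.714, which missed the threshold after adjustment (P = 0.0702), was 0.906 on the first scan day and −0.37 on the second, and fell to 0.109 without the 2 livers farthest in Saa1, so that it rests on those livers. Saa1 and Lcn2 had r = 0.672 (adjusted P = 0.104), with 0.840 and 0.355 on the 2 days and 0.192 without those livers.

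Orm1 and Orm2, neighbouring genes that encode closely related lipocalins, had r = 0.614 (adjusted P = 0.112). With slide means removed it was 0.950 (adjusted P = 0.00045), with scan day means removed 0.768 (adjusted P = 0.0319) and with median centring 0.924 (adjusted P = 0.000112). Without livers HF-low-suf 1 and 2 it was 0.220. Without the 2 livers farthest in Orm1 it was 0.954, in the HF-low-suf livers 0.953 and in the HF-low-low livers −0.08, and on the 2 scan days 0.718 and 0.983. Saa4 and Apcs were inversely related, with r = −0.80 (adjusted P = 0.0210; rho = −0.78, adjusted P = 0.0466), and −0.47 and −0.86 on the 2 scan days. With slide means removed r was 0.108, and with arrays centred on their median in place of loess 0.342. With the second probes of Saa1 and Saa4 it was −0.33 (adjusted P = 0.382). The 2 Saa4 probes correlated with each other at only 0.382 over the livers.

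Over the 45 pairs the median r was 0.346, 30 pairs had a positive r and 5 had an adjusted P below 0.05, namely the 3 pairs of Saa1, Saa2 and Saa3, Hp with Hpx and Saa4 with Apcs. The median over all pairs of 14858 probes detected in liver with values on all 12 arrays was 0.00. Without the 3 pairs among Saa1, Saa2 and Saa3 the median of the rest was 0.268, and without the livers HF-low-low 2 and HF-low-suf 1 the median of the 45 was 0.0911.

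**Figure D4:**
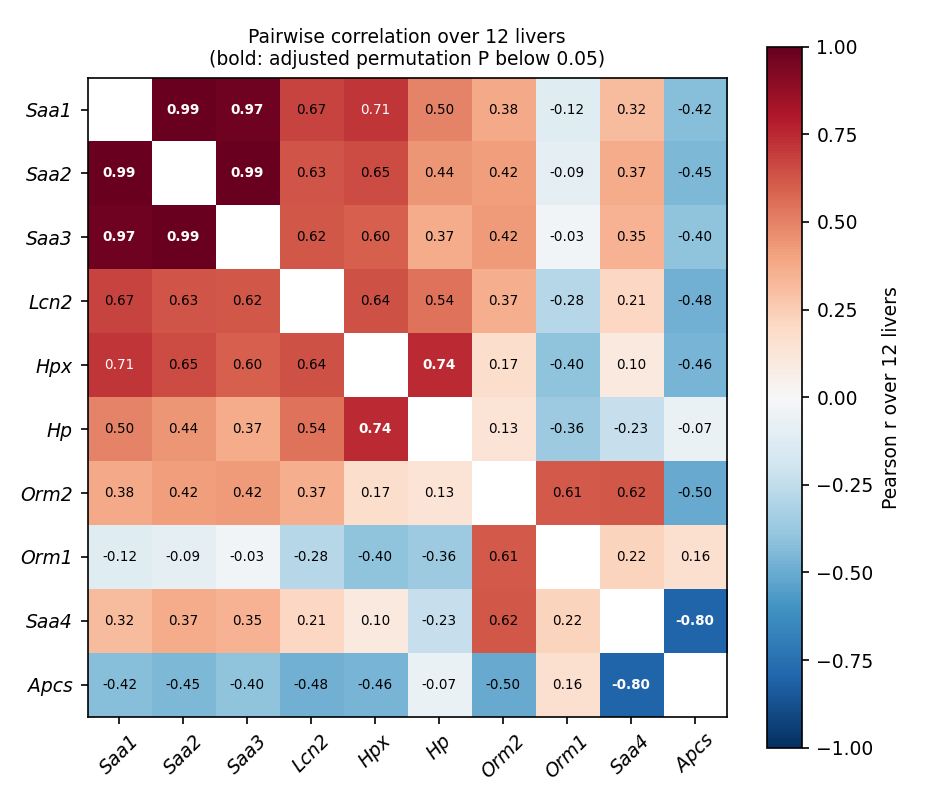
Pearson's r over 12 livers for each pair of the 10 transcripts (both axes list the genes), with red for positive and blue for negative values and bold figures where the permutation P adjusted over 45 pairs is below 0.05. Saa1, Saa2 and Saa3 form a block with r of at least 0.97, Hpx and Lcn2 are positively related to it without passing the threshold, and Apcs is negatively related to most genes.

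The trio also moved together in the colon, at a smaller scale. The SD over 12 colons was 0.39 for Saa1, 0.36 for Saa2 and 0.45 for Saa3, against a median of 0.27 for detected probes. In colon r was 0.987 for Saa1 and Saa2, 0.853 for Saa1 and Saa3 and 0.829 for Saa2 and Saa3 (adjusted P = 0.00045, 0.0126 and 0.0153 over 45 pairs). Within a scan day these lay between 0.634 and 0.993. These were the 3 pairs with an adjusted P below 0.05 in colon, where the median r over the 45 pairs was 0.0654. Orm1 (SD 0.45), Saa4 (0.40) and Orm2 (0.37) varied more over the colons than over the livers, at levels where 6 of 12 arrays were above background.

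Mice high in liver were partly high in colon. HF-low-low mouse 2 ranked first of 12 in both tissues in the mean of Saa1, Saa2 and Saa3, at 1.04 in liver and 1.40 in colon, and HF-low-suf mouse 1 ranked next in both, at 0.45 and 1.24. HF-low-low mouse 5 was lowest in liver, at −1.92, and next to lowest in colon, at 0.19. At least 2 mice went against this. HF-low-suf mouse 6 had the third highest liver (−0.19) and the lowest colon (0.18), and HF-low-low mouse 1 ranked 11 of 12 in liver (−1.35) and 3 of 12 in colon (0.997), with the widest gap between its tissues. Between the tissues of a mouse r was 0.613 for Saa1, 0.666 for Saa2 and 0.607 for Saa3, with an adjusted P of 0.0951 for each over the 8 genes measured in both tissues, and rho was 0.559, 0.483 and 0.399 (adjusted P = 0.464, 0.464 and 0.537). Without the 2 mice farthest from the median these became 0.0309, 0.126 and 0.0648, so that the relation rests on those mice. Within the 6 mice of the first scan day, which include both, r was 0.764, 0.790 and 0.835, and within the 6 of the second 0.0754, 0.203 and 0.0323. Hp had r = 0.454 (adjusted P = 0.274), and the other 4 genes lay between −0.29 and 0.06.

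Macrophage and neutrophil transcripts were highest in the 2 livers highest in Saa1, Saa2 and Saa3, but not in the next one. The mean of 12 macrophage and neutrophil genes, of which 7 were detected in liver, was 0.94 in HF-low-low liver 2, with −0.26 to 0.30 in the other HF-low-low livers. It was 0.74 in HF-low-suf liver 1 and −0.29 to 0.54 in the other HF-low-suf livers. The lowest of all 12 livers, at −0.29, was HF-low-suf liver 6, which ranked 3 of 12 in the mean of Saa1, Saa2 and Saa3. The r of the list mean over the livers was 0.757 with Saa1, 0.786 with Saa2 and 0.789 with Saa3, with P adjusted over 70 relations of genes and marker lists of 0.0767, 0.0579 and 0.0579. Leaving out the 2 livers most extreme for the list gave 0.290, 0.403 and 0.421. In colon r was 0.780, 0.754 and 0.637 (adjusted P = 0.0826, 0.0826 and 0.355). On the first scan day the liver values were 0.951, 0.962 and 0.974, and on the second they were −0.02, 0.155 and 0.112, whereas the colon values lay between 0.600 and 0.925 on either day. The neutrophil granule genes Ngp, Camp and Mpo were above background in at most 1 liver each, and S100a8 in 2, while S100a9, the other chain of calprotectin, the macrophage gene Emr1 and the lysozyme gene Lyz were so in all 12. With Saa1, r over the livers ran from 0.470 for Emr1 to 0.780 for Lyz among the 7 detected genes, with 0.629 for S100a9, and from −0.06 to 0.53 among the other 5. The part of these cells in the serum amyloid A values was not tested.

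**Figure D5:**
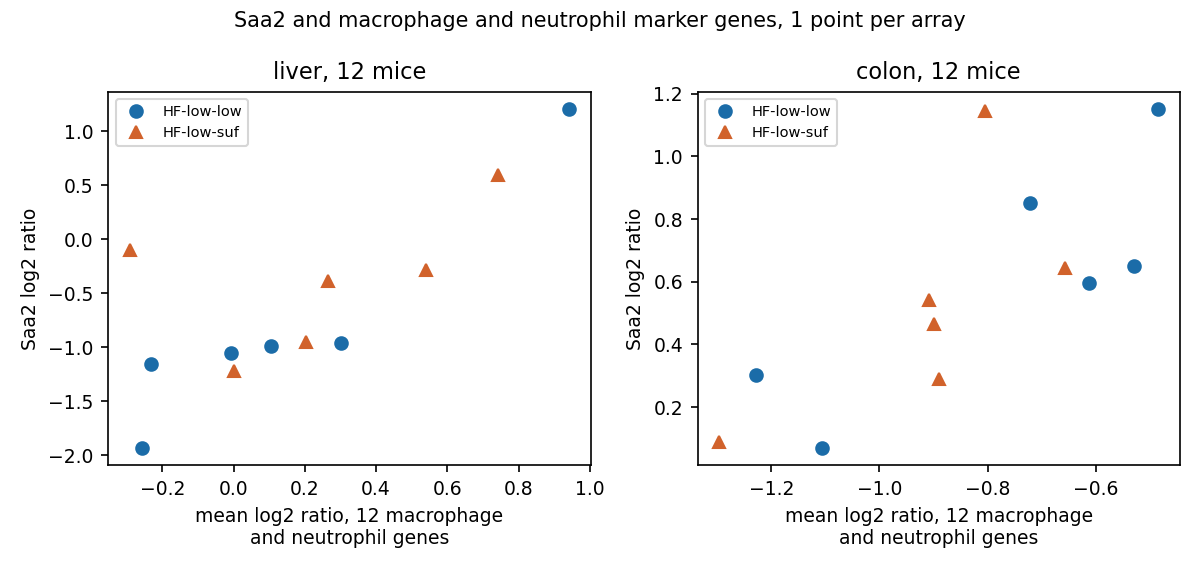
Saa2 log2 ratio (y axis) against the mean log2 ratio of 12 macrophage and neutrophil genes (x axis) in 12 livers (left) and 12 colons (right), 1 point per array, with blue circles for HF-low-low and orange triangles for HF-low-suf. The 2 livers highest in Saa2, at 1.21 and 0.60, are also the 2 highest in these genes, at 0.94 and 0.74, and r was 0.786 in liver and 0.754 in colon.

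The adipocyte mean correlated with Orm2 at r = 0.745 over the livers (adjusted P = 0.107) and at −0.01 without the 2 livers farthest in it, and the 2 scan days gave 0.937 and 0.190. With Saa1, Saa2 and Saa3 the adipocyte mean had r = 0.415, 0.413 and 0.380 (adjusted permutation P = 0.673, 0.673 and 0.762). Without the 2 livers farthest in the adipocyte mean these were −0.15, −0.11 and −0.21. Hp correlated with the mean of 9 hepatocyte genes at r = 0.792 (adjusted P = 0.0579) and at 0.589 without the 2 farthest, with 0.915 and 0.935 on the 2 scan days. With the hepatocyte genes, Saa1, Saa2 and Saa3 had r between −0.05 and 0.13. In colon, Hpx correlated with the mean of 12 skeletal muscle genes at r = 0.764 (adjusted P = 0.0826; rho = 0.888, adjusted P = 0.0217) and at 0.708 without the 2 farthest, and Saa4 with 9 exocrine pancreas genes at 0.803 (adjusted P = 0.0826; rho = 0.510, adjusted P = 0.564) and at 0.620. Saa4 was above background in 6 of 12 colons, and 4 of the 9 pancreas genes were detected in colon. The highest Saa4 (−2.42) and the highest pancreas mean (−2.04) both came from colon HF-low-suf 5. That array was 1 of the 2 with the brightest reference. On the 2 scan days the Hpx relation was 0.453 and 0.734, and the Saa4 relation was 0.189 and 0.935. The part of these cells in the values was not tested.

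Of the signalling genes, those nearest to Saa2 over the livers were Cebpd and Nfkbia. Saa2, the member above background in all 12 livers with the largest SD, was compared with 53 of the 54 genes of the acute phase, cytokine, signalling and receptor lists that were detected in liver. The other, Il6ra, had an outlier spot on 1 liver array and was left out, and its r with Saa2 over the remaining 11 livers was 0.165. Cebpd, a C/EBP factor induced in the acute phase response, had r = 0.817 with Saa2 (adjusted P = 0.0485; rho = 0.790, adjusted P = 0.168). Nfkbia, which encodes the NF-kB inhibitor and is itself an NF-kB target, had r = 0.800 (adjusted P = 0.0485; rho = 0.734, adjusted P = 0.226). Without the 2 livers farthest in Saa2 these were 0.663 and 0.626. On the first scan day they were 0.858 and 0.880, and on the second 0.577 and 0.590. No other gene of the 53 passed. Further genes are named here after their values were seen. Tlr2 had r = 0.678, Mt2 0.645, Hmox1 0.582, Hnf4a −0.65 and Rbp4 −0.68, with adjusted P between 0.207 and 0.330. Without the 2 livers farthest in Saa2 these 5 became 0.145, 0.339, 0.0692, −0.59 and −0.32. Over the 19 detected genes of the positive acute phase list, r with Saa2 ran from −0.37 for Crp to 0.645 for Mt2, with −0.06 for Fgg, 0.10 for Lbp, 0.22 for Serpina3n, 0.38 for C3 and 0.48 for Hamp1, and none passed adjustment. Without the same 2 livers, Hamp1 turned to −0.27 and C3 fell to 0.0611. Socs3, the feedback inhibitor of interleukin 6 signalling, had r = 0.432 (adjusted P = 0.512).

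Across all 15209 probes detected in liver, those most like Saa2 were its relatives Saa1 and Saa3. After them came Ccdc80, an extracellular matrix protein, with r = 0.906 over 12 livers, Plekho1 (0.882), the MHC class II gene H2-Eb1 (0.878), Mfge8, a bridging protein in the uptake of dying cells (0.877), 2610027C15Rik (0.877), the small GTPase Rhoc (0.877), the MHC class II gene H2-Ab1 (0.868), 0610011I04Rik (0.859), Sgce (0.858) and Rras (0.858). Without the 2 livers farthest in Saa2 the r of Ccdc80 was 0.696, the highest of these 10, and that of Plekho1 was 0.574. They are given as a description, since the genes were picked for their r and all values come from the same livers. Of the other members, Hpx came nearest to Saa2, with 3.52% of detected probes having a higher r, followed by Lcn2 with 4.37%. Apcs stood at the other end, with 90.3% of detected probes having a higher r.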

How the data were processed

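The members and the gene lists were chosen with earlier results of these data known, and so were the rules for naming genes. All members are named, with the 4 largest differences of a list among genes above background and the 10 genes most like Saa2.

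The authors deposited 1 Feature Extraction (version 9.5.3.1) file per array, holding the raw intensity of each spot in Cy3 (mouse sample) and Cy5 (pool). The raw intensity columns as deposited are not background corrected or normalized between dyes, the same files also hold processed signals, used as an alternative, and arrays of the authors had no dye swap, so a dye effect of a probe stays in its ratio but cancels in differences. Positions are those of build mm7. Sample groups, and the mouse that pairs colon and liver, come from the labels. No column lacked a sample.

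Mean signals were corrected with normexp (offset 50), 1639 control spots of 45018 were dropped, arrays were normalized by loess in limma 3.58.1 (R 4.3.3), outlier spots were left out, and spots were averaged into 41174 probes. Global loess, limma and the threshold for diet follow the methods of the study. Liver was compared with colon over all arrays, mouse entering as a random effect through duplicateCorrelation in statmod 1.5.0 (correlation 0.158). Diets were compared by limma in each tissue over 12 arrays. P-values were adjusted by the Benjamini-Hochberg method over all probes, or over the relations stated for correlations. Correlations used 100000 resamples. A probe counted as detected in a tissue where Feature Extraction marked it well above background on 6 or more of 12 arrays. Median Cy3 signals of the arrays lay 3.78 to 7.20 times above background. The fits and correlations were tested on simulated data.

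Each of the 6 slides held 1 array of each group, all with the same replicate number, and 3 slides were scanned on each of 2 days. Deviations of same-numbered arrays from their group means correlated between −0.50 and 0.53 in liver and between −0.09 and 0.24 in colon, so the numbers do not pair mice across diets and mark a shared slide.

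The settings varied were background handling (plain subtraction or none), Feature Extraction processed signals, median centring, the Cy3 channel alone, outlier spots kept, a filter on dim probes, the second probe of Saa1 and Saa4, all 24 arrays in one fit, the mouse as a fixed block, replicate number or scan day as a block, diet means removed, Spearman's rho, and leaving out each array or mouse. Chosen after seeing the data were the removal of scan day means, of the 3 pairs among Saa1, Saa2 and Saa3, of the 2 arrays with the brightest reference (liver HF-low-suf 4 and colon HF-low-suf 5), of livers HF-low-suf 1 and 2, and of livers HF-low-low 2 and HF-low-suf 1.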

Additional observations from a re-analysis of the deposited data

Results flagged for a closer look

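Of 40 groups of 6 arrays (10 transcripts in 2 tissues and 2 diets), 3 held an array far from the other 5, all from HF-low-low liver 2. In that liver Saa1 was 0.68 against −1.33 in the next HF-low-low liver, Saa2 was 1.21 against −0.97, and Saa3 was 1.23 against −0.73. The gap was 0.759, 0.691 and 0.637 of the range of the group, above the critical value of 0.625 for 6 samples. Chance flags about 1 in 20 groups, and these 3 are not separate events, since the transcripts moved together over the livers.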

How the results depend on the processing

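The differences between liver and colon kept their direction and call for all 10 transcripts in all 25 settings, and no setting called a diet difference in liver (26 settings), in colon (24) or by tissue (23). The smallest unadjusted P among these was 0.0143. Sizes moved by more than 1.5 times in fold for Apcs (4.98), Saa4 (5.86), Orm1 (6.11), Orm2 (6.35) and Lcn2 (3.43) with Feature Extraction processed signals, for Lcn2 with median centring (0.90), for Saa2 with the Cy3 channel alone (−1.90) and for Saa4 by its second probe (4.36). Feature Extraction processed signals moved the median liver minus colon difference of all probes to −0.19. Among uncalled values, a change of sign larger than the SE occurred for Saa4 in liver by its second probe, at −0.14, for Orm2 in colon with Feature Extraction signals, at −0.24, and for Lcn2 by tissue without the 2 brightest-reference arrays, at 0.39.

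The Saa1, Saa2 and Saa3 pairs had an adjusted P below 0.05 in all 26 settings, and Hp with Hpx in 13. Saa4 with Apcs reversed to 0.342 under median centring. The number of pairs with an adjusted P below 0.05 was 9 with Feature Extraction signals and 11 with no correction or plain subtraction, and 3 to 7 with 1 mouse left out, lowest without HF-low-low mouse 6 or HF-low-suf mouse 6. The median r was 0.0911 without livers HF-low-low 2 and HF-low-suf 1, 0.107 without livers HF-low-suf 1 and 2, and 0.134 with the second probes of Saa1 and Saa4, by which Saa4 with Apcs was −0.33 (adjusted P = 0.382). Leaving out 1 mouse gave 0.211 to 0.439. The median r between tissues, 0.255, became 0.416 with plain subtraction and 0.053 without livers HF-low-low 2 and HF-low-suf 1. The causes were not tested.

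With the replicate number as a block, which here is the slide, no call of tissue or diet changed. Orm1 with Orm2 reached r = 0.950 and an adjusted P below 0.05, Saa4 with Apcs became 0.108, the median r over pairs was 0.209 with 6 pairs below 0.05, and the median r between tissues was 0.451. Lcn2 in colon and the colon levels of Apcs, Saa4, Orm1 and Orm2 lie near the background, which limits their differences. The raw colon signals of Hpx were also low, though above background on all 12 arrays.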
